A study of Mus musculus with 16 samples.

Results

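The 9 genes described here are the myogenic transcription factors and muscle stem cell genes Pax3, Pax7, Myf5, Myf6, Myod1, Myog, Cdh15 and Chodl, together with Mstn, which encodes myostatin. They were taken by symbol from a table of 41204 genes, all 9 were found, and all 9 were among the 23754 genes that passed the filter on low counts. Their RNA was compared by sequencing between the Achilles, Flexor (forepaw), Patellar and Supraspinatus tendons of C57BL/6J mice, with 4 libraries per tendon and 16 in all. The groups differ only in the tendon they name, and neither sex, age nor any treatment is given in the sources used here. The labels number the mice 1 to 4 in each tendon without saying whether a number marks the same animal across tendons, so p-values measure the spread between these libraries. A whole dissected tendon can hold muscle fibres and stem cells of the adjoining muscle, and in bulk RNA fewer cells of a type and less RNA per cell cannot be told apart.

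Skeletal muscle is built and repaired by satellite cells, stem cells that lie against the fibre and are marked by the paired-box factor Pax7 and, in a subset of muscles, by its paralog Pax3. On activation they switch on the basic helix-loop-helix factors Myf5 and Myod1, which commit cells to the muscle lineage and bind the E-box motif, and then Myog, which drives differentiation. Myf6 is the family member best known for its level in mature fibres. Cdh15, or M-cadherin, is an adhesion molecule of satellite cells and myoblasts, and Chodl, or chondrolectin, is a membrane protein of the C-type lectin family. Myostatin is a secreted member of the TGF-beta family, made mainly by muscle fibres, that limits muscle mass through activin type II receptors and the transcription factors Smad2 and Smad3.

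The tendons differed in all 9 genes, and the Patellar tendon stood at the bottom for 8 of them. Mstn was 13.6-fold higher in Flexor and 23.6-fold higher in Supraspinatus than in Achilles, the largest differences of any of the 9 genes against Achilles in those tendons. Pax3 and Pax7 were ordered differently across tendons, with Pax3 higher in Flexor than in Achilles and Pax7 not called between them. Myod1 and Chodl were higher in Supraspinatus than in each of the other 3 tendons. In the edgeR quasi-likelihood test over all 4 tendons, with Benjamini-Hochberg adjustment over all genes tested, 9 of 9 genes passed an adjusted p of 0.05, against 64.9% of all genes tested.

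Library totals were 84414005 to 97180849 counts in Achilles, 97242489 to 106573353 in Flexor, 34559686 to 63235636 in Patellar and 86898889 to 107805065 in Supraspinatus. The Patellar libraries also carried more counts in 7 genes with rRNA-like sequence, 13.2% to 42.0% against 1.86% to 4.91% elsewhere. Levels are given as CPM, a gene's counts scaled to a common library total, on TMM-scaled library sizes. Of 15 muscle fibre genes, such as those for skeletal actin, titin and muscle creatine kinase, none was at 0 in any tendon, and their summed level was 36617 to 75838 CPM in Achilles, 41748 to 63233 in Flexor, 349.0 to 7290 in Patellar and 87369 to 97763 in Supraspinatus. All 15 were lower in Patellar than in each other tendon, 3 were higher in Supraspinatus than in Achilles, and edgeR called 0 between Flexor and Achilles (1 at an unadjusted p under 0.05, 1 by DESeq2 and 1 by limma with voom) and 0 between Supraspinatus and Flexor (2, 0 and 1). Of all genes tested, 16.9% were called higher in Supraspinatus than in Achilles and 21.1% lower in Patellar than in Achilles. Of 10 tendon cell markers none was at 0 in any tendon either, and their summed level was 11461 to 29603 CPM in Achilles, 19005 to 20826 in Flexor, 32146 to 56964 in Patellar and 8946 to 35116 in Supraspinatus.

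**Figure D1:**
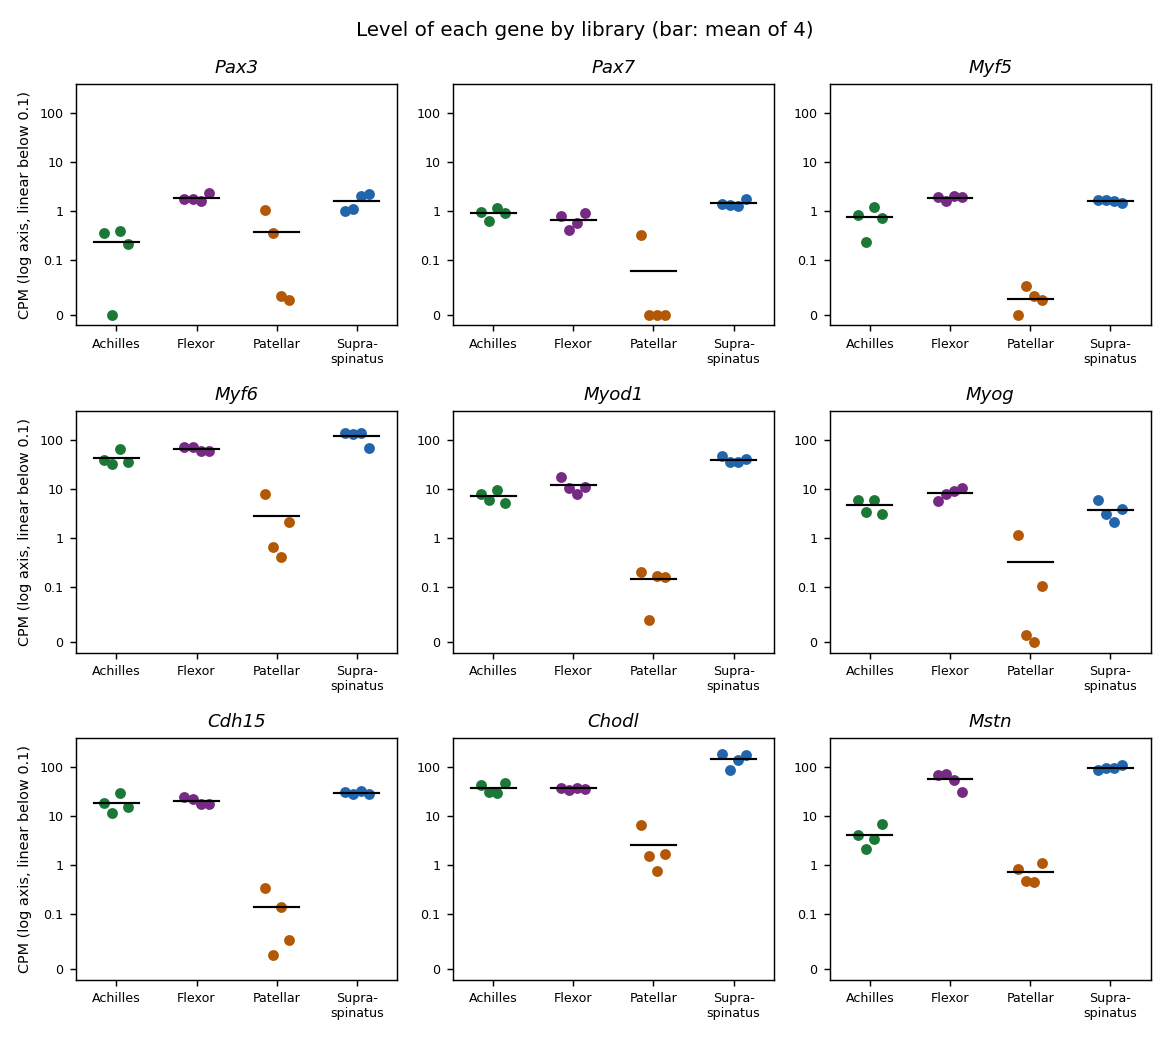
Level of each of the 9 genes in every library, in CPM on an axis that is logarithmic above 0.1 and linear below it, with 1 point per library and a bar at the mean of the 4 libraries of each tendon. The Patellar points lie lowest for 8 genes, while for Pax3 they span 0.0269 to 1.06 CPM and overlap the Achilles points.

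In GRCm38, Mstn lies at chr1:53061640-53068079 on the plus strand, Myog at chr1:134289989-134292548 (plus), Pax3 at chr1:78101267-78197134 (minus) and Pax7 at chr4:139737062-139833528 (minus). Myf5 (chr10:107482908-107486134) and Myf6 (chr10:107492853-107494737) are neighbours on the minus strand. Myod1 lies at chr7:46376474-46379099, Cdh15 at chr8:122847966-122867397 and Chodl at chr16:78930948-78951733, all 3 on the plus strand. Cdh15 is overlapped on its own strand by Gm20388, so how counts were shared between the pair is uncertain. The other 8 genes overlap no annotated gene.

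The proximal promoters of Mstn, Chodl and Myog are shown as examples that hold the motif that the myogenic factors bind. Each run is the 250 bases before the RefSeq transcript start (GRCm38.p6), read 5′ to 3′ on the gene's strand, all 3 plus. Capitals mark matches to the E-box CANNTG, which reads the same on both strands.
Mstn, chr1:53061390-53061639: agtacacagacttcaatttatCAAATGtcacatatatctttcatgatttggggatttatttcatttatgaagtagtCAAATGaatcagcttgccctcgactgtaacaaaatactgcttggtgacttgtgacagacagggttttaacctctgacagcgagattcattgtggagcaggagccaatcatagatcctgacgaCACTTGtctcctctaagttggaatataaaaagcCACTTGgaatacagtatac
Chodl, chr16:78930698-78930947: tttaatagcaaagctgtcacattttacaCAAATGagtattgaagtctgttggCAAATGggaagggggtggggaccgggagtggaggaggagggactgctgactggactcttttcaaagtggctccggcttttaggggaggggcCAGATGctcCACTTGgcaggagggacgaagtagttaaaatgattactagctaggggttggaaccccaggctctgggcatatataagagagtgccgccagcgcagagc
Myog, chr1:134289754-134290003: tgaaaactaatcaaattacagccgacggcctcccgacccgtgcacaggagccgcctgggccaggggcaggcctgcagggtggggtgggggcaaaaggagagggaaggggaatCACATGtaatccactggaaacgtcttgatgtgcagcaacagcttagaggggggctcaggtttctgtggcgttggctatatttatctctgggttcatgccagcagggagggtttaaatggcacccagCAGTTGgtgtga
The Mstn window held 4 matches, CAAATG at 229 and 174 bases and CACTTG at 52 and 19 bases before the start, and the sequence TATAAA at 29 bases. The Chodl window also held 4 matches, and the Myog window held 2, CACATG at 138 bases and CAGTTG at 12 bases. RefSeq windows were matched for 6 of the 9 genes, of which 4 held an E-box. The fourth was Cdh15, with 3 matches, while the Pax7 and Myf5 windows held 0. Of 32851 promoter windows of the same length, 66.2% held at least 1 CANNTG, 3.84% held 4 or more and 7.59% held TATAAA. The 4 of 6 windows with an E-box were thus close to the share of all windows. None of the 6 windows held the E-box forms CAGCTG (13% of all windows) or CACCTG or CAGGTG (17.2%). None held a site for Mef2 factors either (2.92%). A match describes letters in this window and was not tested as a binding site.

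Levels can be compared between genes per length, as CPM per kilobase of annotated exon. On that scale Myf6 was the highest of the 9 genes in every tendon, at 34.9 ± 12 in Achilles, 53.4 ± 6.32 in Flexor, 95.6 ± 26.3 in Supraspinatus and 2.25 ± 2.87 in Patellar (SD, n = 4). Mstn stood at 1.55 ± 0.750 CPM per kilobase in Achilles, below Chodl, Cdh15, Myod1 and Myog there. In Flexor it stood at 21.2 ± 7.04 and in Supraspinatus at 36.6 ± 3.73, next below Myf6 in both. Pax3, Pax7 and Myf5 were below the other 6 genes in Achilles, Flexor and Supraspinatus: over all 4 tendon means Pax7 ranged from 0.0137 to 0.245 CPM per kilobase, Pax3 from 0.0384 to 0.304 and Myf5 from 0.0136 to 0.910.

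Pax3, in the 4 libraries in order of mouse number, measured 0.350, 0, 0.390 and 0.210 CPM in Achilles, 1.78, 1.77, 1.61 and 2.37 in Flexor, 1.06, 0.352, 0.0347 and 0.0269 in Patellar, and 1.03, 1.10, 2.0 and 2.27 in Supraspinatus. Flexor and Supraspinatus libraries were all above the Achilles libraries, and Patellar 1 stood apart from Patellar 3 and 4, which held 1 count each. The order of the means was Flexor, Supraspinatus, Patellar and Achilles, and no pair of neighbours in that order passed the test. Pax3 was higher in Flexor than in Achilles by 2.98 ± 0.86 on the log2 scale (SE, edgeR adjusted p = 0.0269) and in Supraspinatus by 2.75 ± 0.86 (adjusted p = 0.022). It was lower in Patellar than in Flexor, at -2.31 ± 0.86 (adjusted p = 0.0346). These calls rest on few counts: the first was lost without Achilles 1 or 4 or without Flexor 2, 3 or 4 (adjusted p = 0.0513 to 0.0789), and the second without Achilles 4 or Supraspinatus 3 (adjusted p = 0.0503 to 0.0601). The third was lost without Flexor 1, 2 or 4 or Patellar 2, 3 or 4 (adjusted p = 0.0526 to 0.0713), and in a fit of only the 8 Flexor and Patellar libraries (adjusted p = 0.0558). Without Patellar 1 it grew to -3.56 (adjusted p = 0.00408). Supraspinatus minus Patellar was 2.07 ± 0.86 (adjusted p = 0.052), and 3.29 without Patellar 1 (adjusted p = 0.00609).

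Pax7 measured 0.950, 0.625, 1.18 and 0.903 CPM in Achilles, 0.783, 0.420, 0.571 and 0.899 in Flexor, 0.322, 0, 0 and 0 in Patellar, and 1.37, 1.32, 1.27 and 1.79 in Supraspinatus. Every Supraspinatus library was above every library of the other tendons, and only Patellar 1 had any count among the Patellar libraries, 14 reads. In the other 3 a count of 0 allows up to 3 counts, or 0.0391, 0.104 and 0.0807 CPM, for counting error only. Pax7 was lower in Patellar than in Achilles (-3.49 ± 0.82, edgeR adjusted p = 0.0034) and than in Flexor (-3.04 ± 0.82, adjusted p = 0.00579), and higher in Supraspinatus than in Patellar (4.14 ± 0.83, adjusted p = 0.000573). The first and second of these calls were lost in edgeR fits of only the 8 libraries of the pair (adjusted p = 0.057 and 0.064). Without Patellar 1 the Patellar level was at least 8.78-fold lower than the Achilles mean, at least 6.42-fold lower than Flexor and at least 13.8-fold lower than Supraspinatus, taking 3 counts in the shallowest remaining library as the floor. The 3 other tendons were not separated in the fit of 16 libraries: Flexor minus Achilles was -0.45 (95% interval -1.73 to 0.83), Supraspinatus minus Achilles 0.65 (-0.62 to 1.93) and Supraspinatus minus Flexor 1.10 (-0.19 to 2.39). The last passed with limma and voom (adjusted p = 0.0333) and in the edgeR fit of the pair's 8 libraries (adjusted p = 0.00621).

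Within a library the balance of the 2 paralogs varied with the tendon. Summed over 4 libraries, Pax3 and Pax7 had 97 and 375 counts in Achilles, 811 and 289 in Flexor, 75 and 14 in Patellar, and 542 and 489 in Supraspinatus. The log2 ratio of Pax3 to Pax7 was -2.43 ± 1.60 (SD, n = 4) in Achilles, where it was below 0 in all 4 libraries, and 1.5 ± 0.36 in Flexor, where it was above 0 in all 4. Supraspinatus lay between, at 0.08 ± 0.50, with libraries on both sides of 0. The ratio was 15.2-fold higher in Flexor than in Achilles and 5.67-fold higher in Supraspinatus than in Achilles, and Supraspinatus minus Flexor was -1.43 on the log2 scale. Each had an exact 2-sided permutation p = 0.0286, the smallest that 4 against 4 libraries allow, and an adjusted p = 0.0343 over 6 comparisons. With that floor, passing after adjustment depends on how many of the 6 tests reach it. Patellar minus Achilles and Supraspinatus minus Patellar, whose ratios rest on the prior count, were among those that did. The adjusted p therefore leans on 2 comparisons that are not interpreted. The Supraspinatus differences fell short of the threshold when some libraries were left out, Supraspinatus 3 or 4 against Achilles (exact permutation adjusted p = 0.0686 each) and Flexor 2 (0.0686) or Supraspinatus 3 or 4 (0.0571 each) against Flexor. The Patellar ratio, 2.01 ± 1.34, is set by the prior count in the 3 libraries with no Pax7 count and is not interpreted. Achilles 2, with no Pax3 count, is set by it in the same way, and the difference between Flexor and Achilles was 3.14 to 4.27 on the log2 scale when each library was left out in turn.

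**Figure D2:**
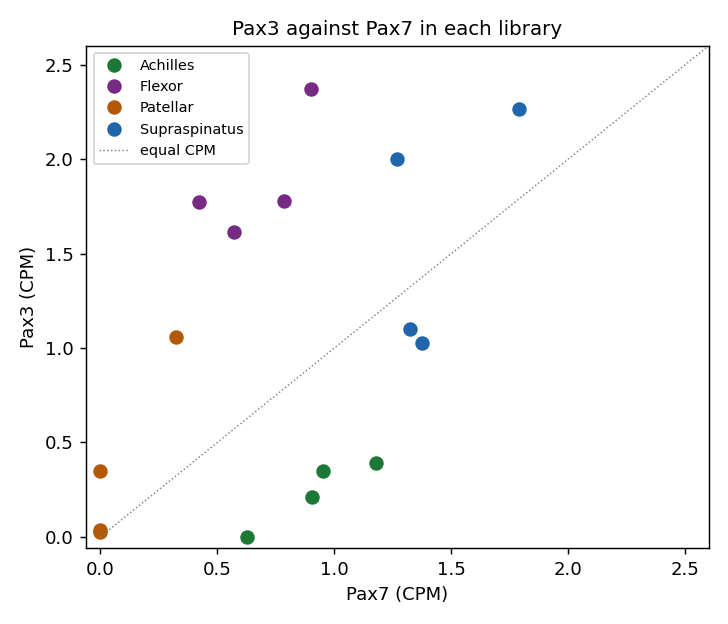
Pax3 against Pax7 in each of the 16 libraries, both in CPM on linear axes, coloured by tendon, with a dotted line at equal CPM. All 4 Flexor libraries lie above the line and all 4 Achilles libraries below it, at 0 to 0.390 CPM of Pax3.

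Myf5, the factor that opens the myogenic programme with Myod1, measured 0.850, 0.238, 1.21 and 0.720 CPM in Achilles, 1.96, 1.62, 2.02 and 1.97 in Flexor, 0, 0.0521, 0.0347 and 0.0269 in Patellar, and 1.72, 1.70, 1.59 and 1.45 in Supraspinatus. The Patellar libraries held 0 to 4 counts each and lay below all others, and Flexor and Supraspinatus lay above all Achilles libraries. Myf5 was lower in Patellar than in Achilles (-4.54 ± 0.57, edgeR adjusted p = 2.14e-05). It was higher in Flexor than in Achilles by 1.33 ± 0.40 (adjusted p = 0.031) and in Supraspinatus than in Achilles by 1.10 ± 0.40 (adjusted p = 0.043). Both of these last calls remained only without Achilles 3 among the 8 libraries that could be left out. They were lost without Achilles 1, 2 or 4 or any library of the other tendon, at adjusted p = 0.0564 to 0.0909 and 0.0589 to 0.0984. With no filter on low counts they were lost too, at adjusted p = 0.0506 and 0.0707. Flexor and Supraspinatus, the top of the order, were not separated (-0.23, 95% interval -0.99 to 0.53).

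Myod1, the commitment factor, measured 8.20, 5.91, 9.81 and 5.31 CPM in Achilles, 18.2, 10.6, 8.02 and 11.2 in Flexor, 0.207, 0.0391, 0.174 and 0.161 in Patellar, and 48.1, 35.4, 36.5 and 41.9 in Supraspinatus. Supraspinatus lay above and Patellar below every library of the other tendons, with 3 to 9 counts per Patellar library. Myod1 was higher in Supraspinatus than in Achilles by 2.47 ± 0.29 (edgeR adjusted p = 1.33e-05), than in Flexor by 1.76 ± 0.28 (adjusted p = 0.000205) and than in Patellar by 8.27 ± 0.42 (adjusted p = 4.11e-09). Flexor and Achilles, neighbours in the order, were not separated at the threshold (0.71 ± 0.28, adjusted p = 0.0918).

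Myog, the differentiation factor, had another order. It measured 6.15, 3.47, 6.02 and 3.20 CPM in Achilles, 5.89, 7.99, 9.08 and 10.8 in Flexor, 1.19, 0.0130, 0 and 0.108 in Patellar, and 6.07, 3.19, 2.11 and 3.99 in Supraspinatus. Flexor had the highest mean, and Achilles and Supraspinatus overlapped it and each other. In the edgeR fit of 16 libraries the Patellar contrasts alone were called, at -3.83 ± 0.83 against Achilles (edgeR adjusted p = 0.00184), -4.67 ± 0.85 against Flexor (adjusted p = 0.000273) and 3.54 ± 0.82 for Supraspinatus minus Patellar (adjusted p = 0.00186). Patellar 1 held 52 of the 57 Patellar counts, and without it the 3 differences were -7.00, -7.86 and 6.69. Supraspinatus minus Flexor was -1.14 (95% interval -2.5 to 0.23, adjusted p = 0.252), the opposite sign to Myod1. That difference was called in 3 alternative fits, at -1.20 with limma and voom (adjusted p = 0.0251), -1.12 with edgeR on the pair's 8 libraries (adjusted p = 0.0127) and -2.27 with the muscle fibre genes as a covariate (adjusted p = 0.0021). Flexor minus Achilles, 0.81 on the pair's 8 libraries, passed there too (edgeR adjusted p = 0.0401).

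Myf6, the factor of mature fibres, measured 40.1, 33.2, 66.5 and 36.6 CPM in Achilles, 74.5, 74.1, 61.6 and 59.5 in Flexor, 8.16, 0.664, 0.417 and 2.15 in Patellar, and 139.8, 132, 139.8 and 71.2 in Supraspinatus. Patellar lay below all others, Achilles 3 lay within the Flexor range, and Supraspinatus 4 was well below the other Supraspinatus libraries and within the Flexor range. Myf6 was lower in Patellar than in Achilles (-3.95 ± 0.64, edgeR adjusted p = 0.000187), and Supraspinatus minus Achilles was 1.45 ± 0.56 (adjusted p = 0.058). The latter passed without Achilles 3 (1.72, adjusted p = 0.0488) and without Supraspinatus 4 (1.64, adjusted p = 0.0494). It also passed with voom, on the pair's 8 libraries and with the fibre genes as a covariate (limma or edgeR adjusted p = 0.00113, 0.00233 and 0.0362).

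Cdh15 measured 18.4, 11.6, 29.6 and 15.3 CPM in Achilles, 25.2, 22.5, 18.2 and 17.7 in Flexor, 0.345, 0.0260, 0.139 and 0.0538 in Patellar, and 31.9, 29.3, 32.7 and 28.4 in Supraspinatus. Achilles and Flexor overlapped, the Patellar libraries held 2 to 15 counts each, and Supraspinatus lay above Flexor but overlapped Achilles 3. The Patellar difference from Achilles, -7.16 ± 0.48 (edgeR adjusted p = 2.2e-07), was the largest of the 9 genes in that comparison. Supraspinatus minus Achilles was 0.71 ± 0.32 (adjusted p = 0.1) and passed without Achilles 3 (1.02, adjusted p = 0.0232), with voom (limma adjusted p = 0.0106) and on the pair's 8 libraries (adjusted p = 0.0467).

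Chodl measured 44.1, 31.2, 30.3 and 48.8 CPM in Achilles, 39.0, 35.3, 38.7 and 36.6 in Flexor, 6.62, 1.56, 0.764 and 1.72 in Patellar, and 184, 87.3, 141 and 181 in Supraspinatus. Achilles and Flexor overlapped, with a difference of -0.04 (95% interval -0.86 to 0.77), and every Supraspinatus library was above both. Chodl was higher in Supraspinatus than in Achilles by 1.94 ± 0.43 (edgeR adjusted p = 0.00261) and than in Flexor by 1.99 ± 0.43 (adjusted p = 0.00252). It was lower in Patellar than in Achilles (-3.84 ± 0.48, adjusted p = 2e-05).

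Mstn measured 4.20, 2.20, 3.40 and 6.98 CPM in Achilles, 70.5, 72.4, 55.2 and 31.1 in Flexor, 0.850, 0.482, 0.451 and 1.10 in Patellar, and 87.2, 97.8, 99.1 and 112 in Supraspinatus. No 2 tendons overlapped: the order was Supraspinatus, Flexor, Achilles and Patellar. Mstn was higher in Flexor than in Achilles by 3.77 ± 0.35 on the log2 scale (edgeR adjusted p = 5.65e-06) and in Supraspinatus than in Achilles by 4.56 ± 0.36 (adjusted p = 6.39e-07). It was lower in Patellar than in Achilles (-2.55 ± 0.37, adjusted p = 8.16e-05). Supraspinatus minus Flexor was 0.79 (95% interval 0.18 to 1.40) with an adjusted p = 0.0742, above the threshold, although the libraries did not overlap. It passed with limma and voom (adjusted p = 0.00898) and with edgeR on the pair's 8 libraries (adjusted p = 0.0185). No library left out ended a called Mstn difference.

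The summed fast fibre markers had the same order of tendons as Mstn, while the slow fibre markers did not. That order was not particular to fast markers. The summed 15 muscle fibre genes had it too by their means, 91477 CPM in Supraspinatus, 49402 in Flexor, 48470 in Achilles and 2690 in Patellar. Their Flexor and Achilles libraries overlapped. The means of Myf6, Myod1 and Cdh15 also followed it. Of 12 fast fibre markers, 5 were higher and 0 lower in Flexor than in Achilles, and 9 were higher and 0 lower in Supraspinatus than in Achilles. Their summed level was 13399 to 30315 CPM in Achilles, 40137 to 63867 in Flexor, 229.8 to 3385 in Patellar and 102930 to 116600 in Supraspinatus. Of 9 slow fibre markers, 9 were lower in Flexor, Patellar and Supraspinatus than in Achilles, with a summed level of 9574 to 19759 CPM in Achilles against 357.3 to 636.6 in Flexor, 240.6 to 2139 in Patellar and 247.0 to 323.6 in Supraspinatus. Of all genes, 6.5% were called higher and 9.72% lower in Flexor than in Achilles, and 16.9% and 16.7% in Supraspinatus. In Patellar 21.1% were called lower than in Achilles. Myh4, the fast IIb myosin heavy chain, differed by 4.68 ± 0.70 between Flexor and Achilles (edgeR adjusted p = 0.000375), and Myh7, the slow myosin heavy chain, by -8.26 ± 0.94 (adjusted p = 3.82e-05). None of these markers was at 0 throughout a tendon, and the part of fibre type in the Mstn difference was not tested.

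The comparison of Flexor with Achilles called 3 of the 9 genes, Pax3, Myf5 and Mstn, all higher in Flexor, against 6.5% of all genes called higher there and 9.72% called lower. The median log2 fold change was 0.71 for the 9 genes, 0.055 for the 15 fibre genes and 0.0004 for all genes tested. When each library was left out in turn, 1 to 3 of the 9 were called here and 3 to 7 in Supraspinatus against Achilles. In Supraspinatus against Achilles, 5 genes were higher, Pax3, Myf5, Myod1, Chodl and Mstn, and 0 lower, against 16.9% and 16.7% of all genes, with a median of 1.45 against 0.78 for the fibre genes and -0.04 for all genes. Between Supraspinatus and Flexor, Myod1 and Chodl alone were called, 2 of 9 higher against 14.7% of all genes, with a median of 0.79 against 0.80 for the fibre genes and -0.07 for all genes. For Myod1 the Supraspinatus level differed from every other tendon, and for Mstn, Pax3 and Myf5 the called differences among these 3 tendons were those with Achilles.

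The Patellar comparisons called nearly the whole group. In Patellar against Achilles 8 genes were lower, all but Pax3, and 0 higher, against 21.1% and 17.4% of all genes, and the median was -3.84 against -4.24 for the 15 fibre genes and -0.01 for all genes. In Patellar against Flexor 9 of 9 were lower, against 26.2% of all genes, with a median of -4.67 against -4.21 for the fibre genes and -0.01 for all genes. In Supraspinatus against Patellar 8 were higher, all but Pax3, against 26.4% of all genes, with a median of 5.64 against 4.86 for the fibre genes and -0.08 for all genes. With the mean of the fibre genes as a covariate in the edgeR fit, these 3 comparisons called 2, 4 and 5 of the 9 genes, and the signs of Pax7 and Myog turned in all 3. None of these turned differences was called (edgeR adjusted p = 0.159 to 0.886), so their direction is not determined. Leaving out each library in turn gave 8, 8 to 9 and 8 to 9 called genes in these 3 comparisons. The tendons share libraries across comparisons, so these counts are not independent of each other. Over the 6 comparisons, 35 of 54 gene differences were called.

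**Figure D3:**
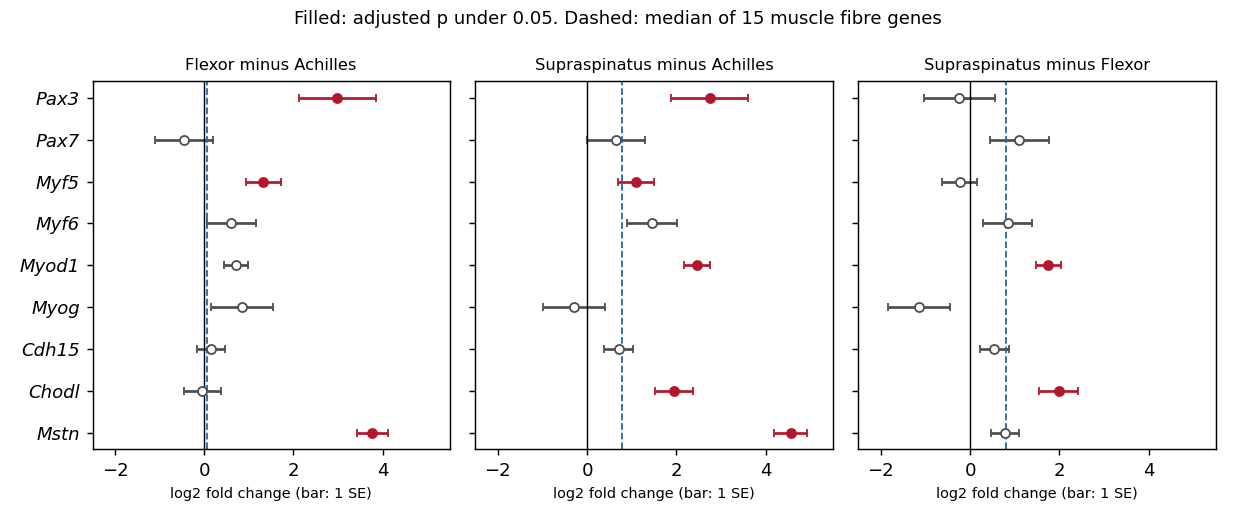
Log2 fold change of each gene, with bars of 1 SE, for Flexor minus Achilles, Supraspinatus minus Achilles and Supraspinatus minus Flexor, filled where the edgeR adjusted p was under 0.05, with a dashed line at the median of 15 muscle fibre genes. Mstn lies farthest to the right in both comparisons with Achilles, at 3.77 and 4.56, and Myog is the gene farthest to the left of Supraspinatus minus Flexor, at -1.14.

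Because the muscle fibre genes differed between tendons, each gene was also measured against them in the same library, as its log2 CPM minus the mean log2 CPM of the 15 fibre genes. That mean was 10.37 ± 0.47 in Achilles, 10.52 ± 0.28 in Flexor, 11.27 ± 0.14 in Supraspinatus and 5.34 ± 1.89 in Patellar (SD, n = 4), and it ranged from 3.36 to 7.58 over the Patellar libraries, with Patellar 1 the highest. Relative to fibre genes, Mstn was -8.41 ± 0.84 in Achilles, -4.75 ± 0.39 in Flexor and -4.65 ± 0.27 in Supraspinatus. The Flexor and Supraspinatus libraries all lay above the Achilles libraries, by 3.66 and 3.76 on average, and overlapped each other. Each comparison with Achilles had an exact 2-sided permutation p = 0.0286, the smallest possible, and an adjusted p = 0.0857 over all 54 tests.

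By permutation, no gene passed the adjusted threshold relative to fibre genes in any of the 6 comparisons: 18 of 54 reached the smallest possible exact permutation p of 0.0286 and 0 of 54 passed after adjustment. Because no p can go below that floor, passing after adjustment depends on how many of the 54 tests reach it. The 0 therefore does not show that any single gene keeps to the fibre genes. The edgeR fit with the same fibre genes as a covariate, which is not bound by that smallest p, called Myog lower in Supraspinatus than in Flexor (-2.27, adjusted p = 0.0021) and than in Achilles (-1.55, adjusted p = 0.0246). It also called Myf6 for Supraspinatus minus Achilles (0.66, adjusted p = 0.0362) and Myod1 for Flexor minus Achilles (0.63, adjusted p = 0.045), and it lost Myf5 for Supraspinatus minus Achilles (1.16, adjusted p = 0.0632). Within tendons the covariate varied most in Patellar (SD 1.89, against 0.14 to 0.47 elsewhere). Its slope can therefore rest largely on Patellar libraries with few counts, which limits these calls. Relative to Achilles, Pax3 was higher by 3.31 in Flexor and by 2.26 in Supraspinatus, each at that smallest p. Myod1 in Supraspinatus was above Achilles by 1.59 and above Flexor by 1.06, and Chodl above Flexor by 1.18, again at exact permutation p = 0.0286 and adjusted p = 0.0857. Myog went the other way in the same libraries, at -1.24 for Supraspinatus minus Achilles and -1.95 for Supraspinatus minus Flexor, with the same p and adjusted p by exact permutation. Myf6 differed by 0.50 for Flexor minus Achilles, also at exact permutation p = 0.0286 and adjusted p = 0.0857. For Supraspinatus minus Achilles the Myf6 difference was 0.55 (exact permutation p = 0.0857), and for Supraspinatus minus Flexor it was 0.04. Cdh15 differed by 0.07 for Flexor minus Achilles and -0.12 for Supraspinatus minus Achilles. Patellar values near 0 counts depend on the prior count and are not described on this scale.

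Measured instead against the 12 fast and 9 slow fibre markers together, 35 of 54 differences passed, with an adjusted exact permutation p of 0.0441. These were 8 genes between Flexor and Achilles, 8 between Supraspinatus and Achilles and 6 between Supraspinatus and Flexor, and 2, 5 and 6 in Patellar minus Achilles, Patellar minus Flexor and Supraspinatus minus Patellar. The slow markers, 9 genes of this index, were lower in each other tendon than in Achilles. Mstn was above Achilles by 4.87 in Flexor and 5.71 in Supraspinatus on this scale.

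**Figure D4:**
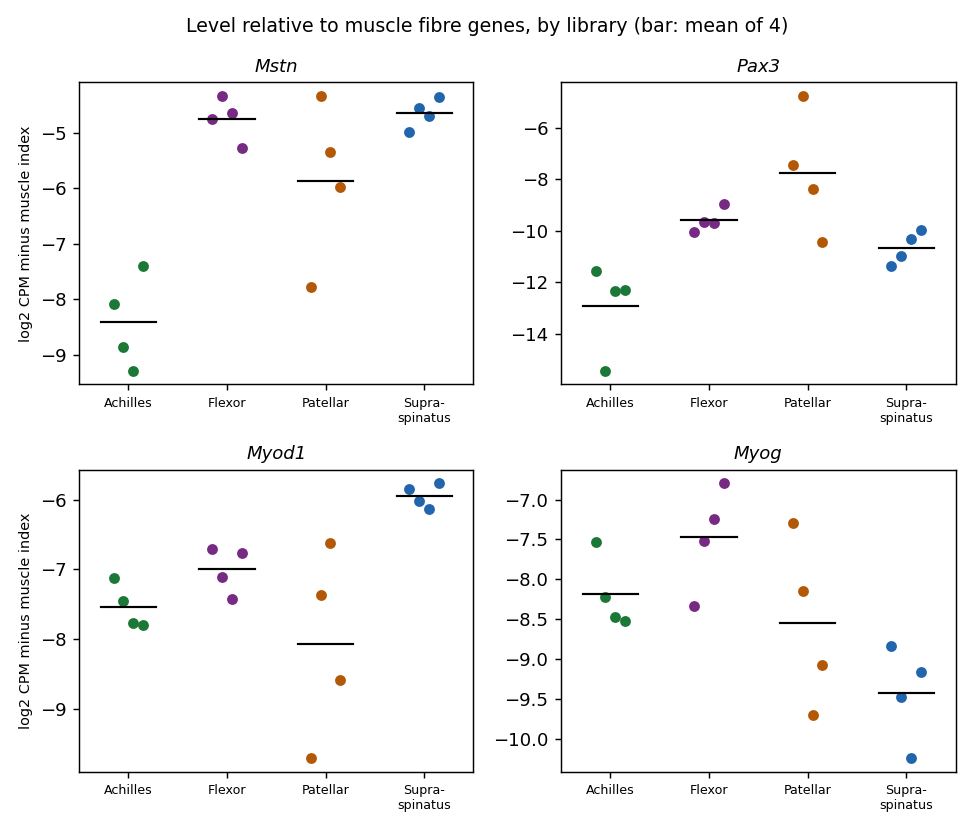
Log2 CPM of Mstn, Pax3, Myod1 and Myog minus the mean log2 CPM of 15 muscle fibre genes, on separate linear axes, 1 point per library and a bar at the mean of 4. The Achilles points of Mstn lie between -9.29 and -7.41 and all 8 Flexor and Supraspinatus points between -5.28 and -4.34.

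Other genes of satellite cells and myoblasts were called in both directions. Of 22 such genes, 5 were higher and 3 lower in Flexor than in Achilles, 6 higher and 4 lower in Supraspinatus than in Achilles, and 3 higher and 13 lower in Patellar than in Achilles. Beside the shares of all genes, 6.5% higher and 9.72% lower, 16.9% and 16.7%, and 17.4% and 21.1%, the counts of lower genes in Flexor and Supraspinatus were close to background. Calcr, the calcitonin receptor of quiescent satellite cells, had no count in any of the 4 Patellar libraries and was at least 1.86-fold lower there than in Achilles, 3.55-fold lower than in Flexor and 4.09-fold lower than in Supraspinatus. Chrdl2, a chordin-like secreted protein, was higher in Flexor (1.80 ± 0.38, edgeR adjusted p = 0.00431) and Supraspinatus (1.47 ± 0.38, adjusted p = 0.00713) than in Achilles. Eya1, a transcriptional cofactor upstream of the myogenic factors, was also higher than in Achilles in both, by 1.37 ± 0.23 (adjusted p = 0.00081) and 1.59 ± 0.23 (adjusted p = 9.05e-05). Tenm4, a teneurin, ran against the group, lower in Flexor than in Achilles (-3.11 ± 0.29, adjusted p = 5.49e-06) at 31.4 ± 10.2 CPM in Achilles and 49.3 ± 12.4 in Patellar.

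E proteins, the dimer partners of myogenic factors, and the inhibitors that compete with them formed a list of 12 genes. In Patellar 5 were higher and 0 lower than in Achilles, and in Supraspinatus 0 were higher and 4 lower than in Achilles. Of all genes, 17.4% were called higher and 21.1% lower in the first comparison, and 16.9% and 16.7% in the second. Twist1, a repressor of myogenic factors that tendon and other mesenchymal cells also express, was 4.08 ± 1.15 CPM in Achilles, 3.77 ± 0.443 in Flexor, 5.83 ± 0.576 in Supraspinatus and 23.9 ± 5.39 in Patellar (SD, n = 4). It was higher in Patellar than in Achilles by 2.55 ± 0.22 (edgeR adjusted p = 1.36e-06), and Twist2 by 1.5 ± 0.27 (adjusted p = 0.000419). Tcf12, an E protein, was higher in Flexor than in Achilles by 0.65 ± 0.11 (adjusted p = 0.000707). The inhibitors Id1 and Msc did not pass over the 4 tendons (adjusted p = 0.877 and 0.133).

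Downstream of the factors, 18 muscle differentiation and fusion genes were measured. In Flexor 7 were higher and 1 lower than in Achilles, in Supraspinatus 4 and 3, and in Patellar 2 and 14. The Supraspinatus counts were close to the 16.9% and 16.7% of all genes called higher and lower there. The same shares were 6.5% and 9.72% in Flexor and 17.4% and 21.1% in Patellar. Mymk, the myomaker protein required for myoblast fusion, was 0.361 ± 0.181 CPM in Achilles, 3.36 ± 1.36 in Flexor, 0.816 ± 0.547 in Supraspinatus and 0.00574 ± 0.0115 in Patellar (SD, n = 4). It was higher in Flexor than in Achilles by 3.21 ± 0.60 (edgeR adjusted p = 0.00194) and lower in Supraspinatus than in Flexor (-2.04 ± 0.57, adjusted p = 0.0142), so its highest mean, like that of Myog, was in Flexor. Myh8, the perinatal myosin heavy chain, was likewise higher in Flexor than in Achilles (2.07 ± 0.52, adjusted p = 0.0119). Myh3, the embryonic myosin heavy chain, had its highest mean in Achilles, 72.1 ± 30.3 CPM against 17.1 ± 4.96 in Flexor and 8.52 ± 4.87 in Supraspinatus, and was lower in Supraspinatus than in Achilles (-3.08 ± 0.83, adjusted p = 0.00978). Mef2c, a partner of myogenic factors, was lower in Patellar (-2.5 ± 0.22 against Achilles, adjusted p = 1.46e-06), and Mef2d was higher in Supraspinatus than in Achilles by 1.03 ± 0.11 (adjusted p = 5.5e-06). Dysf, the dysferlin of membrane repair, was higher in Supraspinatus than in Achilles by 0.69 ± 0.19 (adjusted p = 0.0104).

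Most further ligand, receptor and Smad genes of the myostatin pathway were higher in Supraspinatus. Of 11 ligands, receptors and Smad genes, 10 were higher and 0 lower in Supraspinatus than in Achilles and 9 higher and 0 lower than in Flexor, while 3 were higher and 1 lower in Flexor than in Achilles. Of all genes, 16.9% were called higher and 16.7% lower in the first comparison and 14.7% higher in the second. In the third the shares were 6.5% higher and 9.72% lower. Gdf11, the closest relative of Mstn, was higher in Supraspinatus than in Achilles by 1.48 ± 0.26 (edgeR adjusted p = 0.000429) but was -0.12 ± 0.25 for Flexor minus Achilles (adjusted p = 0.812), where Mstn was higher. Acvr2b, the main myostatin receptor, was 7.65 ± 2.09 CPM in Achilles, 8.18 ± 1.56 in Flexor, 18.8 ± 2.26 in Supraspinatus and 6.36 ± 3.71 in Patellar (SD, n = 4), higher in Supraspinatus than in Achilles by 1.30 ± 0.39 (adjusted p = 0.0176). The signal carrier Smad3 (0.67 ± 0.12, adjusted p = 0.000413) and the inhibitory Smad7 (1.34 ± 0.17, adjusted p = 3.26e-05) were higher in the same comparison. The median log2 fold change of the 11 genes was 0.76 there, against 0.78 for the 15 muscle fibre genes and -0.04 for all genes. For Supraspinatus minus Flexor the median was 0.89, against 0.80 for the fibre genes and -0.07 for all genes.

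Genes that activate or restrain the secreted ligand did not share 1 direction. Of 12 proteases and inhibitors, 2 were higher and 2 lower in Flexor than in Achilles, and 4 higher and 1 lower in Supraspinatus than in Achilles. Of all genes, 6.5% were called higher and 9.72% lower in the first comparison, and 16.9% and 16.7% in the second. Fst, or follistatin, which binds and blocks myostatin, was 18.1 ± 2.45 CPM in Achilles, 6.16 ± 0.411 in Flexor, 7.04 ± 0.834 in Supraspinatus and 16 ± 5.84 in Patellar (SD, n = 4). It was lower in Flexor than in Achilles (-1.56 ± 0.20, edgeR adjusted p = 0.000105) and in Supraspinatus than in Achilles (-1.37 ± 0.20, adjusted p = 9.36e-05), and Mstn was higher in both. Patellar minus Achilles, where Mstn was lower, was -0.17 ± 0.20 for Fst (adjusted p = 0.513). Bmp1, a protease of the family that cleaves the myostatin propeptide and also procollagen, was highest in Patellar, by 2.21 ± 0.26 over Achilles (adjusted p = 1.29e-05). Furin, which cleaves the precursor, was higher in Flexor than in Achilles by 0.52 ± 0.11 (adjusted p = 0.00476), and Wfikkn2, another myostatin-binding protein, was higher in Supraspinatus than in Achilles by 1.44 ± 0.37 (adjusted p = 0.00739).

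**Figure D5:**
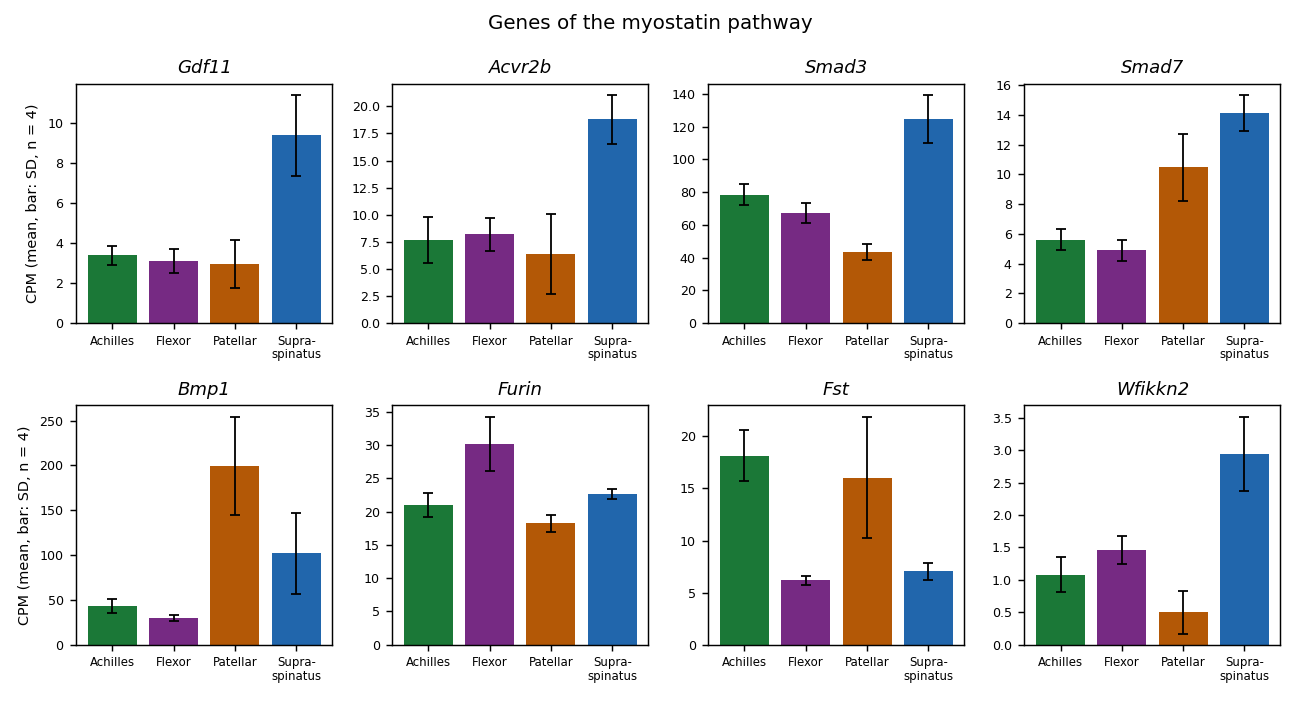
Mean CPM of 8 genes of the myostatin pathway in each tendon, on linear axes that start at 0, with bars of 1 SD over 4 libraries. Gdf11, Acvr2b and Smad3 have their highest means in Supraspinatus, while Fst has lower means in Flexor and Supraspinatus (6.16 and 7.04 CPM) than in Achilles and Patellar (18.1 and 16).

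Among 10 atrophy and growth effectors, 5 were higher and 0 lower in Supraspinatus than in Achilles, and 0 higher and 1 lower in Flexor than in Achilles. Of all genes, 16.9% were called higher and 16.7% lower in the first comparison, and 6.5% and 9.72% in the second. The Flexor counts were close to those shares. Fbxo32, the ubiquitin ligase atrogin-1, was higher in Supraspinatus than in Achilles by 1.39 ± 0.46 (edgeR adjusted p = 0.0306), and Fbxo31, another F-box protein, by 2.42 ± 0.21 (adjusted p = 1.03e-06). Fbxo31 is overlapped on the opposite strand by the gene that overlaps Cdh15. Mtor, the growth kinase, was lower in Patellar than in Achilles (-1.12 ± 0.12, adjusted p = 4.28e-06).

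Pax3 and some other genes here are also expressed outside muscle, so markers of other cells were read beside them. Schwann cell markers, 10 in all with none at 0 throughout a tendon, summed to 840.3 to 5666 CPM in Achilles, 1790 to 4748 in Flexor, 498.0 to 774.9 in Patellar and 444.8 to 533.4 in Supraspinatus. Of these, edgeR called 0 between Flexor and Achilles, with 0 at an unadjusted p under 0.05 and 0 by DESeq2 or by limma with voom, and 10 were lower in Supraspinatus than in Achilles, while Pax3 was higher in both. Of 8 melanocyte markers, 5 were tested, their summed level was 14.1 to 28.7 CPM over all 16 libraries, most of it Mitf (16.4 to 24.2 CPM as tendon means), and Slc45a2 was at 0 throughout Patellar and Tyrp1 throughout Supraspinatus. Of the 5, 0 were higher and 1 lower in Flexor than in Achilles and 0 higher and 3 lower in Supraspinatus than in Achilles. Their median log2 fold change was 0.22 in Flexor minus Achilles and -6.08 in Supraspinatus minus Achilles, so in Flexor they shared no direction. Mlana, a melanosome protein, averaged 0.692 CPM in Achilles, 0.128 in Flexor, where it was lower (-2.42 ± 0.78, edgeR adjusted p = 0.0437), and 0.00868 in Supraspinatus. Markers of fibroadipogenic progenitors summed to 395.1 to 783.8 CPM in Achilles, 1234 to 2092 in Flexor, 868.6 to 1038 in Patellar and 1197 to 1662 in Supraspinatus, with 4 of 8 higher in Flexor than in Achilles and 3 higher and 2 lower in Supraspinatus. Of 10 adipocyte markers 10 were lower in Flexor and in Supraspinatus than in Achilles, of 8 endothelial markers 4 and 7 were lower, and of 8 macrophage markers edgeR called 0 in either comparison (0 and 1 at an unadjusted p under 0.05, 0 by DESeq2 or limma). The part of these cells in the levels of the 9 genes was not tested. Beside these counts, 6.5% of all genes were called higher and 9.72% lower in Flexor than in Achilles, and 16.9% and 16.7% in Supraspinatus. Counts near those shares say little about a cell type.

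For each gene the 3 others with the most similar log2 CPM over the 16 libraries were found among named genes with a mean of at least 1 CPM. The libraries share the contrast of Patellar with the rest, so a high Pearson r describes that pattern and carries no p. Mstn was nearest to Myhas (r = 0.980), a transcript of the fast myosin heavy chain cluster, then Dusp10 and Tbc1d1. Myod1 was nearest to Pkia (0.991), Ano5 and the muscle sodium channel Scn4a, Cdh15 to Got2 (0.994) and Scn4b, and Myf6 to Kbtbd12 (0.994), Cnksr1 and Srl. Pax7 was nearest to Itgb6 (0.981), Slc9a2 and Rbm24, Myf5 to Bcap29 (0.982), Mfap3l and Ccdc47, Chodl to Cap2 (0.981), Klhl30 and Hif1an, and Myog to Atcayos (0.981), myoglobin Mb and Pold2. Pax3 had the lowest such values, 0.892 with Nr4a1, 0.880 with St7l and 0.873 with Hspa1b.

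The authors' deposited table lists 6 of the 9 genes, all but Pax3, Pax7 and Myf5. Of their 36 gene comparisons in the authors' deposited table, 24 have an FDR under 0.05. The present fit called 24 of those 36, the calls were shared in 24, and in 0 of them did the direction differ.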

How the data were processed

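RNA of 4 tendons, 4 libraries each, was grouped by the tendon and mouse number in each library's label. RNA was cleaned on micro columns with DNase I before Illumina library preparation, per the labels' protocols. The authors deposited whole-number read counts per gene with no normalization. HISAT2, edgeR, FastQC and build mm10 are named in the submitters' processing notes. Which program counted the reads, whether it used strand, and which annotation it took are not stated there, so counts of overlapping genes are uncertain. The authors' deposited table of log2 fold changes, p-values and FDR values for 13452 genes was used only to count shared calls. The sources used here do not state how that table was filtered or modelled.

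Counts were analysed with edgeR 4.0.16 in R 4.3.3 (filterByExpr by tendon, 23754 genes; TMM; robust quasi-likelihood fit with 1 mean per tendon over 16 libraries; 2-sided tests; Benjamini-Hochberg over all genes in each comparison; threshold 0.05). Each standard error is the absolute log2 change over the root of its F statistic, and 95% intervals are normal intervals on it. Log2 CPM used a prior count of 2. Levels relative to 15 muscle fibre genes, and the Pax3 to Pax7 ratio, were tested by exact 2-sided permutation over 70 assignments, adjusted over 54 and 6 tests, and 4 against 4 libraries cannot go below 0.0286. Positions are from GENCODE for GRCm38 (mm10) and promoters from RefSeq. Totals of 34559686 to 107805065 counts set the precision, and limits from 0 counts (3 counts) cover counting error only.

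The genes and lists were chosen with earlier results of these data known. Named beyond the 9 genes were up to 3 genes per list in order of adjusted p over the 4 tendons, and Fst, Acvr2b, Gdf11, Wfikkn2, Mymk, Myh3, Myh8, Mef2c, Id1, Msc, Calcr and Chrdl2 whatever their values. For similar patterns, 3 genes per member with a mean of at least 1 CPM were taken, leaving out predicted genes. Some genes that these rules take are not reported here. Alternatives were DESeq2 1.42.0 size factors and test, limma 3.58.1 with voom, no filter, a replicate block, the fibre genes as covariate, 8 libraries per pair, 7 rRNA-like genes left out, a prior count of 0.5, another fibre index, and leaving out each library. The fitting was tested on simulated data. Figures used matplotlib 3.10.9 in Python 3.11.15.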

Additional observations from a re-analysis of the deposited data

Results flagged for a closer look

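Of 44 groups of 4 libraries examined, 5 held a library far from the others by Dixon's criterion, which chance gives in about 1 in 20 groups. In Patellar 1, Pax7 stood at 0.322 CPM while the other 3 libraries had 0, Myog at 1.19 CPM against 0 to 0.108, and Chodl at 6.62 CPM against 0.764 to 1.72. That library also had the highest level of muscle fibre genes among the Patellar libraries, a mean log2 CPM of 7.58. Flexor 2 stood at 1.62 CPM of Myf5, against 1.96 to 2.02 in the other Flexor libraries. Supraspinatus 4 stood at 71.2 CPM of Myf6, against 132 to 139.8 in the other Supraspinatus libraries.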

How the results depend on the processing

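DESeq2 size factors in edgeR and removal of rRNA-like genes left all 54 gene calls as they were. Same-numbered libraries did not clearly deviate together (mean r 0.0186 over 24 pairs, -0.135 to 0.256, 2 pairs over 0.1, 5 of 16 libraries closest to their own number). These values do not settle whether a number marks the same animal. The replicate block ended no call and turned only Chodl, Flexor minus Achilles, to 0.010. With DESeq2, 47 of 48 comparisons with an adjusted p kept their call (Pax3, Supraspinatus minus Patellar, passed at 0.031), and Myf6 had none. Limma with voom called 6 genes in Supraspinatus minus Flexor, where edgeR fits of 8 libraries called 7. Such fits lost Pax7 in Patellar minus Achilles and minus Flexor and Pax3 in Patellar minus Flexor (edgeR adjusted p = 0.057, 0.064 and 0.0558). They called 6580 of all genes in Flexor minus Achilles, against 3853 in the fit of 16 libraries. In Patellar minus Achilles they called 5854, against 9131. The shares of all genes given above are from the fit of 16 libraries, where all tendons share 1 estimate of the spread. Patellar libraries were less alike (Pearson r of log2 CPM 0.903 to 0.948) than libraries within each other tendon (0.971 to 0.989). The median over all genes moved by over 0.1 with voom, to -0.13 in Patellar minus Achilles, -0.14 in Patellar minus Flexor and 0.041 in Supraspinatus minus Patellar, and to 0.045 in the last with the fibre covariate.

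With the fibre genes as covariate, 2, 4 and 5 of the 9 genes (3934, 5143 and 4463 of all genes) were called in Patellar minus Achilles, Patellar minus Flexor and Supraspinatus minus Patellar. Without the covariate 9131, 11952 and 12651 of all genes were called there. Signs turned for Pax7 (1.74, 2.37 and -2.32) and Myog (1.28, 0.56 and -2.83) in those, and for Pax7 in Supraspinatus minus Achilles (-0.58), Cdh15 in Supraspinatus minus Flexor (-0.045) and Pax3 in Supraspinatus minus Patellar (-0.30). None of these turned differences was called (edgeR adjusted p = 0.159 to 0.93). The cause of the turned signs was not tested. Every Patellar library had a lower covariate than every other library, so covariate and Patellar tendon are hard to tell apart in this fit. Against fast and slow markers, 8, 2, 8, 5, 6 and 6 genes passed in Flexor minus Achilles, Patellar minus Achilles, Supraspinatus minus Achilles, Patellar minus Flexor, Supraspinatus minus Flexor and Supraspinatus minus Patellar, in place of 0 in each. That contrast is set by how many tests reached the smallest possible permutation p, so it says little about single genes.

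Leaving out each library gave 1 to 3 of the 9 genes in Flexor minus Achilles (2520 to 3465 of all genes) and 3 to 7 in Supraspinatus minus Achilles. It turned Cdh15 (-0.045 without Achilles 2, up to 0.47) and Chodl (0.057 without Achilles 4, down to -0.16) in Flexor minus Achilles and Pax3 in Patellar minus Achilles (-0.56 without Patellar 1, up to 1.03). The log2 ratio of Pax3 to Pax7 ranged from 1.72 to 2.85 in Supraspinatus minus Achilles, -1.61 to -1.25 in Supraspinatus minus Flexor, -2.25 to -1.29 in Supraspinatus minus Patellar and -0.14 (without Patellar 2) to 0.82 in Patellar minus Flexor. Patellar depth limits Pax3, Pax7, Myf5, Myod1, Myog, Cdh15 and Mstn, with 0 to 52 counts per library (13 to 41 for Mstn).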
